A study of Mus musculus with 4 samples.

Results

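Genes for taking up and using glucose were read in RNA-Seq libraries of mouse hematopoietic stem cells (HSCs) with and without *Id2*. They are the 37 genes, of 19354 in the deposited table, whose symbols are on a list of glucose transporters, glycolytic enzymes, lactate enzymes and carriers, pyruvate dehydrogenase kinases and pentose phosphate enzymes. Each of the 37 had 1 row in the table. HSCs came from bone marrow of mice that all carried *Mx1-Cre* and had been given pIpC, a double-stranded RNA that raises interferon and so turns on the *Mx1* promoter. The control mice were Mx1-Cre; Id2+/+ and the others Mx1-Cre; Id2Fl/Fl, in which the Cre recombinase deletes *Id2* (called Id2Δ/Δ). The mice were 8 to 16 weeks old, and cells were sorted 2 weeks after pIpC as LSK FLT3- CD48- CD150+. Since the *Mx1* promoter responds to interferon in many cell types, deletion was not limited to HSCs. RNA was taken from cells pooled over 14 Id2+/+ and 15 Id2Δ/Δ mice in 2 experiments. Each genotype gave 2 libraries, here called replicates 1 and 2, and the labels do not say whether a number marks an experiment. P-values therefore measure the spread between pools, not between mice.

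Glycolysis splits glucose into pyruvate in the cytosol, and the pyruvate is either reduced to lactate and exported or oxidized in mitochondria. Pyruvate dehydrogenase kinases (PDKs) hold back that second route by switching off the pyruvate dehydrogenase complex. The pentose phosphate pathway branches off after the hexokinase step and supplies NADPH and the sugar of nucleotides. Quiescent HSCs are known for a reliance on glycolysis, which the hypoxia-inducible factor HIF-1α promotes through several of these genes. The RNA-Seq was done to look for genes and pathways behind the exhaustion of HSCs that lack *Id2*, so the comparison is Id2Δ/Δ against Id2+/+.

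The values are log2 CPM (a gene's reads scaled to a common library total), quantile-normalized by the authors. The depth, recovered from the low values, was about 14207350 and 15663326 reads in Id2+/+ and 17761330 and 18831991 reads in Id2Δ/Δ HSCs. *Id2* itself was read 93 and 98 times in Id2+/+ HSCs and 0 times in both Id2Δ/Δ libraries. All 11 genes of an HSC marker list had values, led by *Kit*, *Meis1* and *Hlf*, and 8 of them were lower in Id2Δ/Δ than in Id2+/+ libraries (summed level 4560 and 4377 against 3223 and 3652 CPM). Unadjusted p-values under 0.05 belonged to 3 of the 11, all lower, where 2.95% of all genes tested passed in that direction, and none had an adjusted p-value under 0.05. In bulk RNA, fewer cells of a type and less RNA per cell cannot be told apart. *Flt3*, whose protein the gate excludes, had a mean of 48.2 CPM, and *Cd48* 4.62 CPM. Of 7 megakaryocyte genes with a row, all were tested and 5 were higher in Id2Δ/Δ libraries, with summed levels of 382 and 366 CPM in Id2+/+ and 450 and 448 CPM in Id2Δ/Δ libraries. Of these 7, 2 passed at an unadjusted p-value under 0.05, both higher (1.72% of all genes tested passed in that direction), and 0 after adjustment. For other cell types the summed levels overlapped between genotypes: 36.8 and 40.8 against 54.0 and 37.7 CPM for the 3 of 7 B cell genes with a row, 58.1 and 46.0 against 62.0 and 48.0 CPM for 3 of 8 T and NK cell genes, and 57.4 and 46.3 against 45.01 and 67.3 CPM for 7 of 10 erythroid genes. *Cd79a*, *Ms4a1*, *Pax5*, *Cd3d*, *Cd3e* and *Cd3g*, which define B and T cells, had no row among the values used here.

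All 37 genes averaged 1 CPM or more, the filter on low values, and were compared with limma (two-sided, Benjamini-Hochberg adjustment over 15895 genes). None of the 37 had an adjusted p-value under 0.05, and over all genes tested the share was 0.0%. The deleted gene *Id2*, at a log2 fold change of -7.31 (unadjusted p = 1.81e-04), also had an adjusted p-value of 0.910. Both its Id2Δ/Δ values stand for 0 reads, so the size of that fold change is set by the lowest values of the libraries. With 3 reads taken as the limit, *Id2* was at least 37.3-fold lower. The threshold was thus not reached even by a gene known to be removed, so a lack of calls does not show a lack of change. Adjusted p-values of the 37 ran from 0.910 to 0.996. At an unadjusted p-value under 0.05 there was 1 gene of the 37 (2.70%), *Tigar*, against 4.67% of all genes tested. Of the 37, 32 differed by less than 0.3 on the log2 scale, but the share of all genes tested within that limit was not computed. In Id2Δ/Δ libraries 21 were higher (56.8%, against 51.7% of all genes tested) and 16 lower. The median log2 fold change was 0.032 against 0.011 over all genes tested.

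These libraries could still bound the size of a difference. For 26 of the 37 genes the 95% interval of the log2 fold change, not adjusted for the number of genes, stayed within 1.5-fold either way, and for 32 within 2-fold. The shares of all genes tested within these limits were not computed. The 26 included the most abundant enzymes, *Ldha*, *Pkm*, *Aldoa*, *Gapdh*, *Tkt* and *Gpi1*. The interval reached past 1.5-fold for *Slc2a1*, *Hk3*, *Pfkfb3*, *Pfkfb4*, *Tigar*, *Eno2*, *Slc16a3*, *Pdk2*, *Pdk4*, *Rpia* and *Taldo1*. In 11 of the 37 (29.7%) both Id2Δ/Δ values lay above both Id2+/+ values, against 19.0% of all genes tested, and in 6 (16.2%) both lay below, against 15.8%. In either direction the libraries of the genotypes did not overlap for 45.9% of the members and 34.8% of all genes tested. For 28 of the 37 genes the difference between genotypes was smaller than the larger of the 2 gaps between replicates. That share was not computed over all genes tested.

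**Figure D1:**
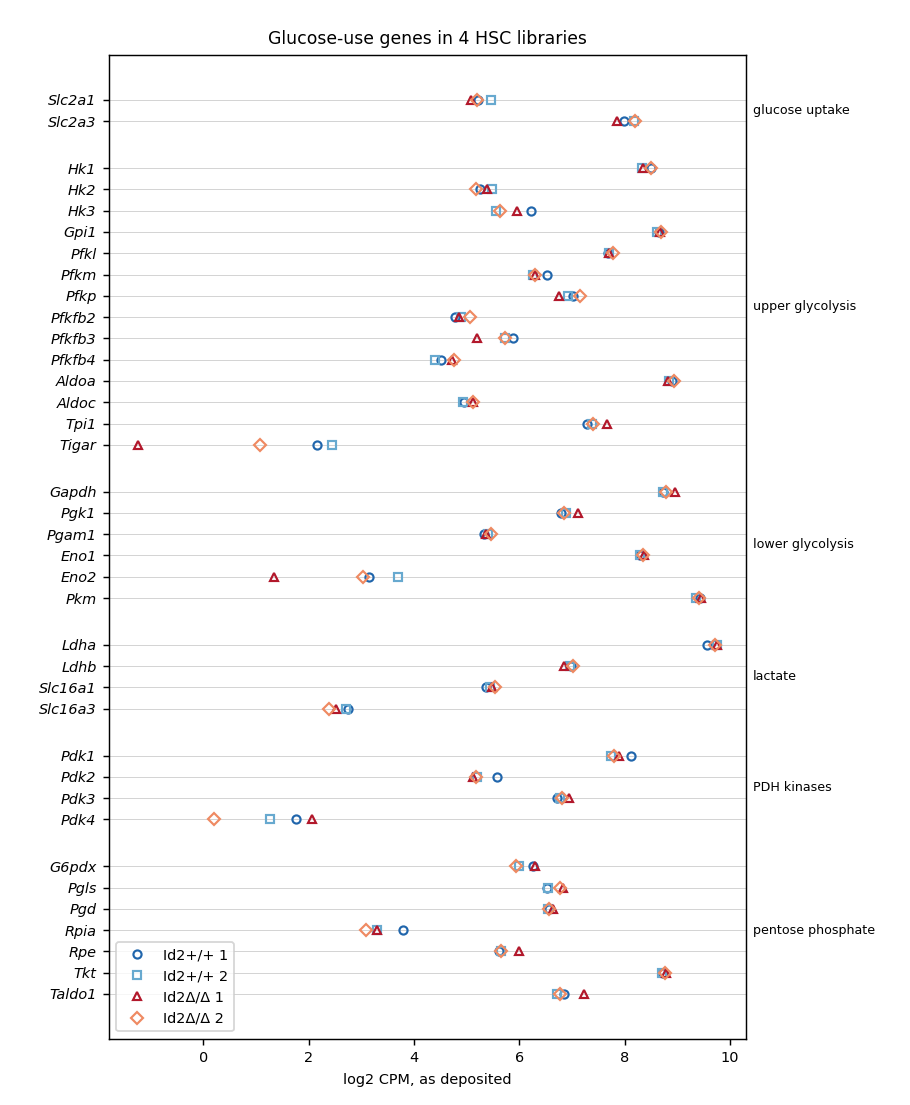
Each row is 1 gene and each symbol 1 library (open blue, Id2+/+; open red or orange, Id2Δ/Δ), on the deposited log2 CPM scale, with values comparable along a row. The 4 symbols nearly coincide for abundant enzymes such as *Tkt* and *Gpi1*, and spread widely for *Tigar*, *Eno2* and *Pdk4*.

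**Figure D2:**
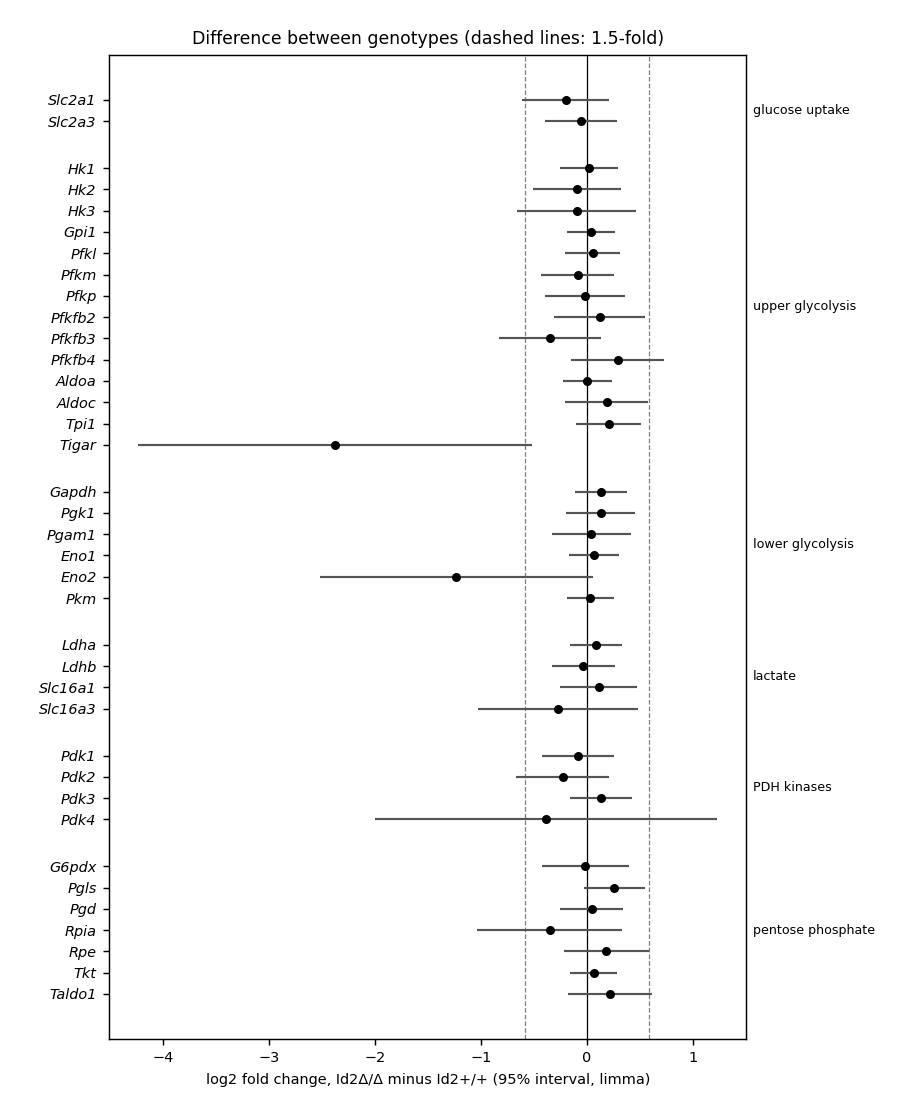
Points are log2 fold changes (Id2Δ/Δ minus Id2+/+) from limma and bars their 95% intervals, with dashed lines at a 1.5-fold difference. Of the 37 intervals, 26 stay between the dashed lines, and that of *Tigar* lies wholly below 0.

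Divided by the length of the longest annotated transcript, the levels covered a wide range. *Ldha*, which makes lactate from pyruvate, stood highest at 459 CPM per kb, followed by *Aldoa* at 304 and *Pkm* at 281 CPM per kb. Then came *Eno1* at 159, *Gapdh* at 136, *Tkt* at 133, *Gpi1* at 127 and *Tpi1* at 108 CPM per kb. The lowest levels per length were those of *Pdk4* at 0.80, *Tigar* at 0.85 and *Slc16a3* at 1.39 CPM per kb. For *Gapdh* the longest transcript has 3289 bases, and a level per length is too low where a shorter transcript was the one expressed.

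HIF-1α binds DNA at a short core with the letters ACGTG or GCGTG, so the start sites of the members were searched for both, on either strand, in RefSeq windows of 300 bases (250 before a start and 50 after, GRCm38.p6). The letters CACGTG hold ACGTG on each strand and count as a pair of overlapping matches. Of the 36 members in the table, 31 (86.1%) had a match in at least 1 window, against 46.7% of the 27025 genes in it. By window, the letters were in 77.4% of the 53 member windows and in 43.8% of all 32851. The genes compared were all those with a window, not matched to the members for expression, number of windows or base composition. Whether the members differ from similar genes was not tested. The 250 bases before a start are shown for 5 genes, with matches in capitals. These are the glucose transporter and hexokinase that the study names and *Pgk1*, *Ldha* and *Pdk1*, which are textbook HIF-1α targets. Where a gene had more than 1 window, the window with the most matches in these bases was taken. This choice applied to *Ldha* and *Pdk1*, with 2 windows each. *Slc2a1* is on the plus strand at chr4:119108495-119108744, *Pgk1* on the plus strand at chrX:106186850-106187099, *Ldha* on the plus strand at chr7:46845554-46845803, *Pdk1* on the plus strand at chr2:71872974-71873223 and *Hk3* on the minus strand at chr13:55021386-55021635.
Slc2a1: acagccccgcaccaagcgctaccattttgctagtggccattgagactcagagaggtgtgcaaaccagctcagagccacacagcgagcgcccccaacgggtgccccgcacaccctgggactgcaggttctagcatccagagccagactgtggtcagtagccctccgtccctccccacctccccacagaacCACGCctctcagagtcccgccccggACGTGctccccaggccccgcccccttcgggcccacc
Pgk1: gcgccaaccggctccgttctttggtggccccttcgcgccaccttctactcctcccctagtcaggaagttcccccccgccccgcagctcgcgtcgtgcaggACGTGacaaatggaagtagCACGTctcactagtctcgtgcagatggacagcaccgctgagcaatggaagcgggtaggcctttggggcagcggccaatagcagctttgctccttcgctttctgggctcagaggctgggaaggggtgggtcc
Ldha: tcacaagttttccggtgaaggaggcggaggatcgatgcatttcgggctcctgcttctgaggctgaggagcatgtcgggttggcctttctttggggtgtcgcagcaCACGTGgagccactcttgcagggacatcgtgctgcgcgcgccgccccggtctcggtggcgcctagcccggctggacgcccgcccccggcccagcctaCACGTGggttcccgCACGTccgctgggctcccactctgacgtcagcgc
Pdk1: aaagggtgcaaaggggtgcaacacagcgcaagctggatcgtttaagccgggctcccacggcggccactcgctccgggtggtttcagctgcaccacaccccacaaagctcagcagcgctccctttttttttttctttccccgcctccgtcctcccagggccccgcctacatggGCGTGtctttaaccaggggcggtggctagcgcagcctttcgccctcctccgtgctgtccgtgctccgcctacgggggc
Hk3: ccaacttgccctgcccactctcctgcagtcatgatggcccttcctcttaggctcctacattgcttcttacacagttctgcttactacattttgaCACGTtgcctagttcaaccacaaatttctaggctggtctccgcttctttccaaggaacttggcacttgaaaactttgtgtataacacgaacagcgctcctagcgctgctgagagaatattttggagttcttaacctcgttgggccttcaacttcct
Counted from the transcript start, the matches begin at -61 and -36 for *Slc2a1*, at -150 and -131 for *Pgk1*, at -78 for *Pdk1* and at -156 for *Hk3*. *Ldha* has 5 in the window shown, beginning at -145, -144, -48, -47 and -34, of which the first and the second pairs are CACGTG. A match describes these letters and not a binding site. The 31 members with a match had a median log2 fold change of 0.032, with 18 higher and 13 lower in Id2Δ/Δ libraries, and the 5 without one, *Gpi1*, *Tpi1*, *Tigar*, *Eno2* and *Rpe*, had a median of 0.039.

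Glucose enters cells through facilitative transporters, of which GLUT1 is encoded by *Slc2a1* and GLUT3 by *Slc2a3*. *Slc2a1* had 5.22 and 5.47 log2 CPM in Id2+/+ and 5.08 and 5.20 in Id2Δ/Δ HSCs. Both Id2Δ/Δ values were the lower ones, but the nearest libraries were level (37.1 against 36.8 CPM). The log2 fold change was -0.20 (standard error, SE, 0.18, 95% interval -0.61 to 0.21, adjusted p = 0.910). It was -0.33 without Id2+/+ replicate 1 and -0.07 without Id2+/+ replicate 2. *Slc2a3* was the more abundant transporter, with 8.00 and 8.18 log2 CPM in Id2+/+ and 7.86 and 8.21 in Id2Δ/Δ libraries. Its lowest and its highest value both came from Id2Δ/Δ HSCs, and the log2 fold change was -0.06 (SE 0.15). Per length, *Slc2a3* made up 78.2% and 77.4% of the transcripts of this pair in Id2+/+ and 78.1% and 80.7% in Id2Δ/Δ libraries.

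The upper stage of glycolysis, from hexokinase to triose phosphate isomerase, held 14 of the genes. Of these 8 were higher and 6 lower in Id2Δ/Δ libraries, with a median log2 fold change of 0.011, and 0 of 14 had an adjusted p-value under 0.05. Hexokinases trap glucose by phosphorylating it. *Hk1* was the main one, at 8.51 and 8.33 log2 CPM in Id2+/+ and 8.36 and 8.51 in Id2Δ/Δ libraries. The genotypes covered almost the same range for *Hk1*, with a log2 fold change of 0.02 (95% interval -0.26 to 0.29). *Hk2*, the hexokinase most tied to rapid growth, had 5.26 and 5.49 against 5.38 and 5.18 log2 CPM, and a log2 fold change of -0.09 (SE 0.18).

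*Hk3*, a hexokinase of myeloid cells, differed between replicates more than between genotypes. It had 74.8 and 47.0 CPM in Id2+/+ and 61.8 and 49.8 CPM in Id2Δ/Δ HSCs. Replicate 1 was the higher library in each genotype, and the log2 fold change was -0.10 (SE 0.24, 95% interval -0.66 to 0.46). It was 0.24 without Id2+/+ replicate 1 and -0.43 without Id2+/+ replicate 2. Summed neutrophil genes had the same order of replicates within each genotype. The 13 of 14 neutrophil genes with a row summed to 288 and 173 CPM in Id2+/+ and 264 and 143 CPM in Id2Δ/Δ libraries, led by *Prtn3*, *S100a8* and *Ngp*. Of these, 10 were tested, 4 were higher and 6 lower in Id2Δ/Δ libraries, and 0 passed at either p-value. Monocyte and macrophage genes, 8 of 9 with a row, summed to 74.6 and 57.6 against 73.2 and 55.3 CPM. The sort removes cells that stain for lineage markers, among them the myeloid antigens Mac-1 and Gr-1. In single-cell RNA-Seq of purified HSCs, the study still found neutrophils and red blood cells as contaminants in small numbers. The part of neutrophil or monocyte RNA in the *Hk3* values was not tested.

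**Figure D3:**
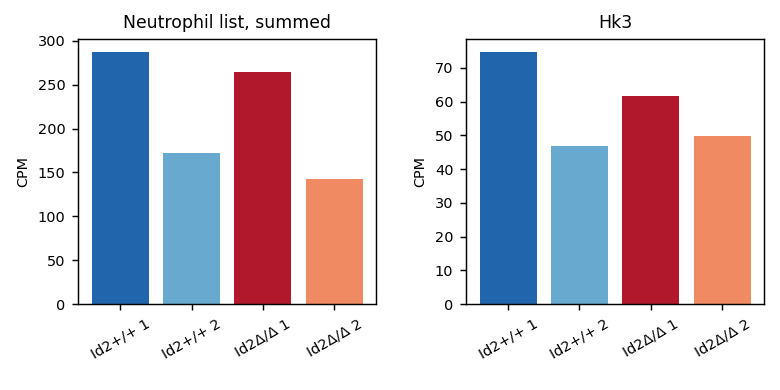
Bars give the summed CPM of 13 neutrophil genes (left) and the CPM of *Hk3* (right) in each library. In both panels replicate 1 stands above replicate 2 within each genotype.

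*Gpi1* and the phosphofructokinases carry the sugar phosphate to the committed step of glycolysis. *Gpi1* was steady, at 8.66 and 8.62 log2 CPM in Id2+/+ and 8.67 and 8.68 in Id2Δ/Δ libraries. *Pfkl*, the most abundant phosphofructokinase, had 7.68 and 7.70 against 7.70 and 7.79 log2 CPM. For *Gpi1* and *Pfkl* both Id2Δ/Δ values lay above both Id2+/+ values, with log2 fold changes of only 0.04 and 0.05. *Pfkm* and *Pfkp* had log2 fold changes of -0.09 and -0.02, with overlapping libraries.

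The PFKFB enzymes make and break the sugar phosphate that activates phosphofructokinase, and their transcripts differed in direction. *Pfkfb3*, whose product mainly makes that activator, had 59.0 and 53.0 CPM in Id2+/+ and 36.6 and 52.8 CPM in Id2Δ/Δ libraries. Id2Δ/Δ replicate 1 stood apart, while replicate 2 was level with the nearest Id2+/+ library, and the log2 fold change was -0.35 (SE 0.21, 95% interval -0.83 to 0.14, adjusted p = 0.910). Without Id2Δ/Δ replicate 1 it was -0.08. *Pfkfb4* had 22.7 and 21.1 CPM in Id2+/+ and 26.5 and 27.0 CPM in Id2Δ/Δ libraries, or 320 and 326 against 465 and 512 reads. Its replicates lay close together in both genotypes, with a log2 fold change of 0.29 (SE 0.19, 95% interval -0.15 to 0.73, adjusted p = 0.910). *Pfkfb2* had a log2 fold change of 0.12, with overlapping libraries. Per length, *Pfkfb3* thus made up 49.4% and 46.5% of the transcripts of these 3 genes in Id2+/+ and 35.2% and 42.1% in Id2Δ/Δ libraries. The mean shares differed by -9.33 percentage points (-5.89 without Id2Δ/Δ replicate 1 and -12.8 without Id2Δ/Δ replicate 2), with an exact permutation p-value of 0.33, the smallest that 2 libraries against 2 allow.

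Aldolase and triose phosphate isomerase complete this stage. *Aldoa* was at 8.90 and 8.85 log2 CPM in Id2+/+ and 8.82 and 8.93 in Id2Δ/Δ libraries, with a log2 fold change of 0.0048 (95% interval -0.23 to 0.24). *Aldoc*, the minor aldolase, had 31.1 and 30.4 against 35.0 and 34.9 CPM, a log2 fold change of 0.19 (SE 0.17). *Tpi1* had 155 and 166 CPM in Id2+/+ and 202 and 169 CPM in Id2Δ/Δ libraries, so that its log2 fold change of 0.20 (SE 0.13) came mostly from Id2Δ/Δ replicate 1 and was 0.08 without that library.

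*Tigar* was the gene with the largest difference of the 37. Its product is a phosphatase, named for its induction by p53, that lowers the activator of phosphofructokinase and so turns glucose toward the pentose phosphate pathway. The gene (ENSMUSG00000038028.9) is on the minus strand of chromosome 6, spanning 127085116 to 127109557 in GRCm38. Its counts were 65 and 87 reads in Id2+/+ and 6 and 36 reads in Id2Δ/Δ HSCs, or 4.44 and 5.45 against 0.42 and 2.12 CPM. Both Id2Δ/Δ values lay below both Id2+/+ values, and Id2Δ/Δ replicate 1 lay below replicate 2 by more than counting error, with exact Poisson 95% intervals of 2.20 to 13.1 and 25.2 to 49.8 reads. These intervals cover counting error only. The log2 fold change was -2.38 (SE 0.79, 95% interval -4.24 to -0.52, unadjusted p = 0.0188, adjusted p = 0.910). Without Id2Δ/Δ replicate 1 it was -1.22 and without Id2Δ/Δ replicate 2 it was -3.54. The antisense gene *Platr31* shares up to 122 bases of an exon with *Tigar*, and reads of the pair cannot be told apart without strand.

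*Trp53*, which encodes p53, had 8.82 ± 0.018 log2 CPM in Id2+/+ and 8.91 ± 0.072 in Id2Δ/Δ libraries (mean ± SD, n = 2 each), a log2 fold change of 0.09 (SE 0.10).

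**Figure D4:**
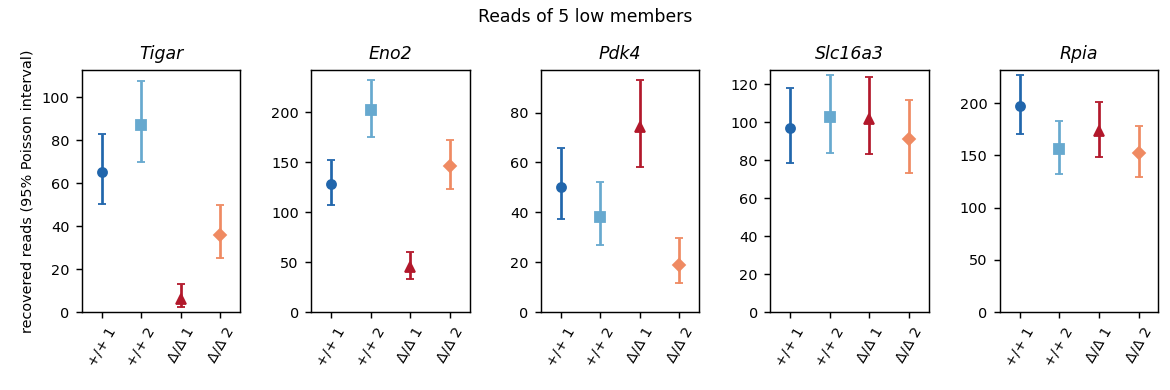
Points are the reads recovered for 5 members with few reads and bars their exact Poisson 95% intervals, which cover counting error only. Libraries differ in depth, from about 14207350 to 18831991 reads. *Tigar* and *Eno2* have the fewest reads in Id2Δ/Δ replicate 1 and *Pdk4* in Id2Δ/Δ replicate 2, while the intervals of *Slc16a3* overlap in all 4 libraries.

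The lower stage of glycolysis, from *Gapdh* to *Pkm*, yields ATP and ends in pyruvate. Of its 6 genes 5 were higher and 1, *Eno2*, was lower in Id2Δ/Δ libraries, with a median log2 fold change of 0.055. *Gapdh* had 427 and 425 CPM in Id2+/+ and 495 and 442 CPM in Id2Δ/Δ libraries. Its 2 control values were nearly equal, both Id2Δ/Δ values lay above them, and the log2 fold change was 0.14 (SE 0.11, 95% interval -0.11 to 0.38), or 0.05 without Id2Δ/Δ replicate 1. *Eno1*, the main enolase, had 315 and 313 against 332 and 327 CPM, a log2 fold change of 0.07 (SE 0.10). *Pkm*, the pyruvate kinase of most tissues, had 9.44 and 9.36 against 9.45 and 9.41 log2 CPM, a log2 fold change of 0.03 (95% interval -0.19 to 0.25).

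*Pgk1* and *Pgam1* overlapped between genotypes. *Pgk1*, which makes ATP, had 111 and 119 CPM in Id2+/+ and 138 and 115 CPM in Id2Δ/Δ libraries, so Id2Δ/Δ replicate 1 was the highest and the others lay within 8 CPM of each other. Its log2 fold change of 0.13 was -0.0049 without Id2Δ/Δ replicate 1. *Pgam1* had a log2 fold change of 0.04 (SE 0.16).

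*Eno2*, an enolase best known from neurons, was a minor transcript here. The gene is on the minus strand of chromosome 6, spanning 124760053 to 124769673 in GRCm38. Its counts were 128 and 202 reads in Id2+/+ and 45 and 146 in Id2Δ/Δ HSCs, or 8.80 and 12.9 against 2.52 and 8.12 CPM. Both Id2Δ/Δ values were below both Id2+/+ values, but Id2Δ/Δ replicate 2 was close to Id2+/+ replicate 1. The log2 fold change was -1.23 (SE 0.55, 95% interval -2.52 to 0.06, unadjusted p = 0.0582, adjusted p = 0.910), and it was -0.39 without Id2Δ/Δ replicate 1. *Eno1* made up 97.1% to 99.5% of the enolase transcripts per length in every library.

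Lactate dehydrogenase converts pyruvate to lactate, and the monocarboxylate carriers MCT1 (*Slc16a1*) and MCT4 (*Slc16a3*) move it across the membrane. *Ldha* had 755 and 867 CPM in Id2+/+ and 867 and 847 CPM in Id2Δ/Δ libraries. Id2+/+ replicate 1 was the low library and the other 3 lay together, so the log2 fold change of 0.08 (95% interval -0.16 to 0.33) was -0.017 without it. *Ldhb*, whose product favours the reverse reaction, had 127 and 124 against 115 and 130 CPM and a log2 fold change of -0.03. *Slc16a1* had 41.0 and 43.5 against 44.9 and 46.2 CPM, with both Id2Δ/Δ values above, and a log2 fold change of 0.11 (SE 0.16). *Slc16a3* had 97 and 103 reads in Id2+/+ and 102 and 91 in Id2Δ/Δ libraries, or 6.70 and 6.49 against 5.69 and 5.21 CPM. Its log2 fold change was -0.28 (SE 0.32, 95% interval -1.03 to 0.48). Of the 2 carriers, *Slc16a1* made up 85.7% and 86.8% of transcripts per length in Id2+/+ and 88.6% and 89.7% in Id2Δ/Δ libraries (exact permutation p = 0.33, the smallest possible).

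The PDKs phosphorylate pyruvate dehydrogenase and so keep pyruvate out of mitochondria. Of 4 genes, *Pdk3* was higher and the other 3 lower in Id2Δ/Δ libraries, and 0 had an adjusted p-value under 0.05. *Pdk1*, a HIF-1α target, had 277 and 214 CPM in Id2+/+ and 237 and 223 CPM in Id2Δ/Δ libraries. The Id2Δ/Δ values lay between the control values, with a log2 fold change of -0.08 (95% interval -0.42 to 0.26). *Pdk2* had 47.6 and 36.5 CPM in Id2+/+ and 34.9 and 36.2 CPM in Id2Δ/Δ libraries. Id2+/+ replicate 1 alone was high for *Pdk2*, and its log2 fold change of -0.23 (SE 0.19) was -0.04 without that library. *Pdk3* had 105 and 110 against 123 and 112 CPM, a log2 fold change of 0.13 (SE 0.13) that was 0.06 without Id2Δ/Δ replicate 1.

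*Pdk4* was near the limit of the filter. It had 50 and 38 reads in Id2+/+ and 74 and 19 reads in Id2Δ/Δ libraries, or 3.40 and 2.39 against 4.15 and 1.15 CPM. The Id2Δ/Δ libraries held its highest and its lowest value, and the log2 fold change of -0.38 (SE 0.69, 95% interval -2.0 to 1.23) was 0.54 without Id2Δ/Δ replicate 2. Per length *Pdk1* and *Pdk3* together made up most PDK transcripts, with *Pdk3* at 39.7% and 47.1% in Id2+/+ and 48.2% and 47.2% in Id2Δ/Δ libraries.

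The pentose phosphate pathway was read through 3 oxidative and 4 nonoxidative enzymes. Of these 5 were higher and 2 lower in Id2Δ/Δ libraries, and the median log2 fold change was 0.062. It was 0.014 without Id2Δ/Δ replicate 1, 0.118 without Id2+/+ replicate 1 and 0.162 without Id2Δ/Δ replicate 2. *G6pdx*, which encodes the rate-limiting dehydrogenase, had 76.9 and 64.0 CPM in Id2+/+ and 78.5 and 61.5 CPM in Id2Δ/Δ libraries. As with *Hk3*, replicate 1 was the higher library in each genotype for *G6pdx*, and the log2 fold change was -0.01 (95% interval -0.43 to 0.40). *Pgls*, the lactonase that follows, had 92.4 and 93.2 CPM in Id2+/+ and 113 and 109 CPM in Id2Δ/Δ libraries. Its replicates nearly coincided within each genotype, and its log2 fold change was 0.26 (SE 0.12, 95% interval -0.03 to 0.55, unadjusted p = 0.0733, adjusted p = 0.910). With each library left out in turn the change in *Pgls* stayed between 0.23 and 0.29. *Fam129c*, on the same strand, shares up to 404 bases of an exon with *Pgls*. *Pgd*, the third oxidative enzyme, had a log2 fold change of 0.05 (SE 0.13).

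Among the nonoxidative enzymes, *Tkt*, which encodes transketolase, was the most abundant and the most even. It had 422 and 420 CPM in Id2+/+ and 441 and 438 CPM in Id2Δ/Δ libraries, a log2 fold change of 0.06 (SE 0.10, 95% interval -0.16 to 0.29). *Taldo1*, which encodes transaldolase, had 115 and 105 against 149 and 110 CPM. *Rpe*, the epimerase of this branch, had 48.8 and 50.6 against 63.4 and 50.3 CPM. For *Taldo1* and *Rpe* Id2Δ/Δ replicate 1 was high and the other 3 libraries lay together. Their log2 fold changes of 0.21 and 0.18 were -0.0076 and 0.02 without it. *Rpia*, the isomerase that forms ribose 5-phosphate, had 197 and 156 reads in Id2+/+ and 173 and 152 reads in Id2Δ/Δ libraries, or 13.9 and 9.80 against 9.87 and 8.45 CPM. Its log2 fold change was -0.35 (SE 0.29), with overlapping libraries, and was -0.10 without Id2+/+ replicate 1 and -0.60 without Id2+/+ replicate 2.

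Id2Δ/Δ replicate 1 was the highest of the 4 libraries for 14 of the 37 genes and the lowest for 9. Over all genes tested it was the highest for 33.0% and the lowest for 30.2%. Relative to each gene's mean, the median of the 7 pentose phosphate genes was -0.03 and -0.07 in the Id2+/+ libraries, 0.16 in Id2Δ/Δ replicate 1 and -0.08 in Id2Δ/Δ replicate 2.

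**Figure D5:**
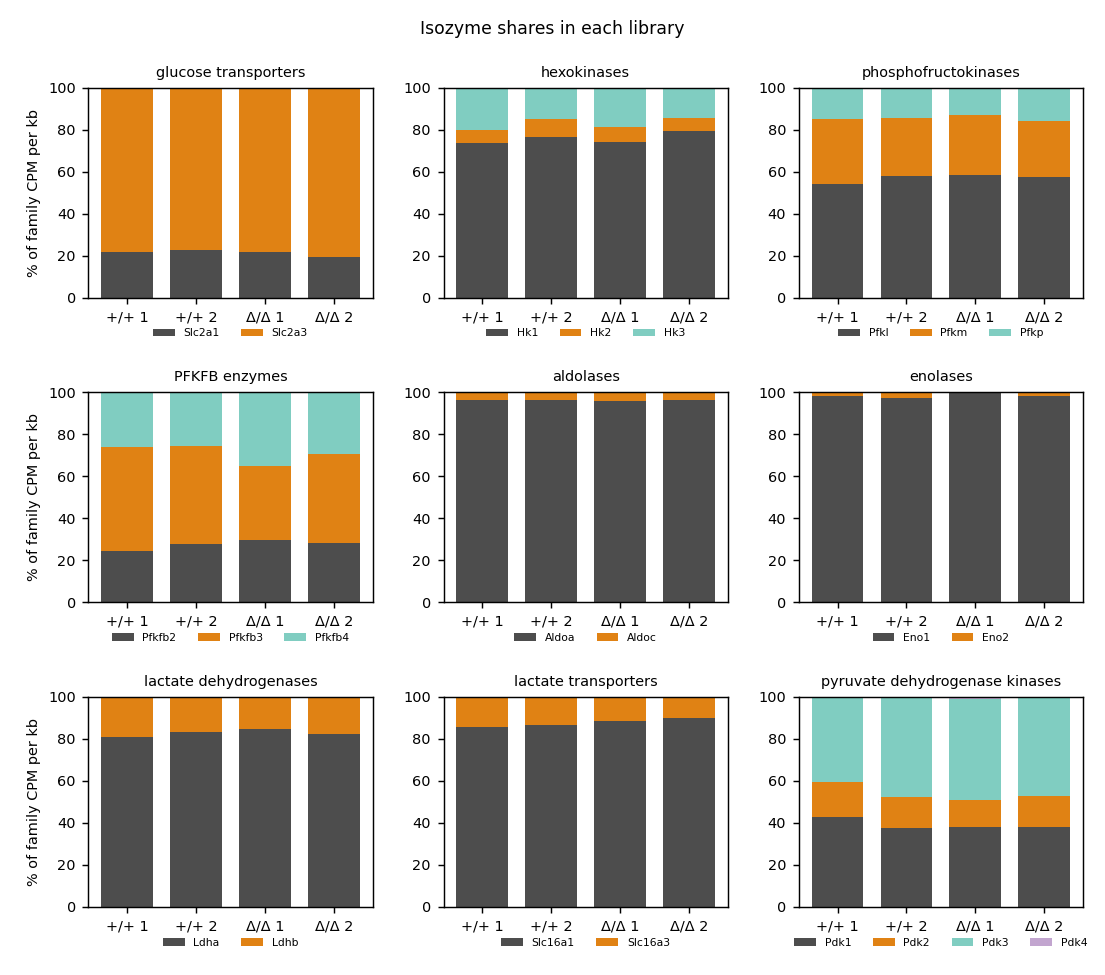
Stacked bars give each isozyme's share, in percent, of its family's CPM per kb of longest transcript in the 4 libraries. *Slc2a3*, *Hk1*, *Pfkl*, *Aldoa*, *Eno1*, *Ldha* and *Slc16a1* hold over 50% of their families in every library, while *Pfkfb3* is below 50% in every library.

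Per length, the order of isozymes was the same in all 4 libraries for 7 of the 9 families, all but the PFKFB enzymes and the PDKs. *Hk1* made up 73.8% to 79.4% of hexokinase transcripts per length, *Pfkl* 54.0% to 58.3% of phosphofructokinase, *Aldoa* 95.9% to 96.5% of aldolase and *Ldha* 81.1% to 84.4% of lactate dehydrogenase transcripts. In the PDK family *Pdk1* led per length in Id2+/+ replicate 1 and *Pdk3* in the other 3 libraries. These shares depend on the longest annotated transcripts, of 5185 bases for *Pdk1* and 2115 for *Pdk3*. Without division by length, *Pdk1* (277 and 214 CPM in Id2+/+, 237 and 223 in Id2Δ/Δ) was above *Pdk3* (105 and 110, 123 and 112) in every library. Likewise *Pfkp*, with 8681 bases, was below *Pfkm* per length but above it in CPM in every library. Exact permutation p-values of the leading shares were 0.33 or 0.67 in all 9 families.

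Several members have near-identical copies in the genome, and how the authors assigned shared reads is not known. At 95% identity over at least 200 bases, *Gapdh* matched 87 other annotated genes, 85 of them pseudogenes, of which 24 had a row. These 24 summed to 2.86% and 3.43% of the CPM of *Gapdh* in Id2+/+ and 3.38% and 4.06% in Id2Δ/Δ libraries. Copies of *Eno1*, among them *Eno1b*, reached at most 1.62% of its CPM. *Pgk1* matched 4 pseudogenes, of which 0 had a row. Among them, *Pgk1-rs7* and *Gm5537* were 100% identical over 1255 and 1252 bases. Whether reads shared with these copies were lost or given to *Pgk1* is not known. *Gm6560*, a processed pseudogene of *Pkm*, had 2.79 and 2.66 log2 CPM in Id2+/+ and 2.57 and 3.39 in Id2Δ/Δ libraries. *Gm49759*, the other match of *Pkm*, shares up to 454 bases of an exon with *Pkm* itself on the same strand. *Rpia* matched 18 genes, none of them a pseudogene, and 5 had a row. The matches span 201 to 365 bases of its 3644-base longest transcript, so they are shared stretches and not copies of *Rpia*. As whole genes these 5, led by *D10Wsu102e*, summed to 1049% and 1618% of the CPM of *Rpia* in Id2+/+ and 1270% and 1830% in Id2Δ/Δ libraries, and how many reads of *Rpia* fall in the shared stretch is not known. *Tigar*, *Eno2*, *Pdk4*, *Pgls*, *Pfkfb3* and *Pfkfb4* had no match of either kind.

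Other genes of glucose metabolism were taken from 7 lists of transporters, glycolytic and pentose phosphate enzymes, monocarboxylate genes, pyruvate entry, gluconeogenesis and glycogen, and HIF regulators. Of 84 genes 62 were tested, and 0 had an adjusted p-value under 0.05. Unadjusted p-values under 0.05 belonged to 2, both lower in Id2Δ/Δ libraries, a direction in which 2.95% of all genes tested passed (1.72% passed in the other). Both were on the list of gluconeogenesis and glycogen genes. Of its 15 tested genes 7 were higher and 8 lower in Id2Δ/Δ libraries, with a median log2 fold change of -0.019. *Pygl*, a glycogen phosphorylase that releases glucose from glycogen, had 78.8 and 80.3 CPM in Id2+/+ and 53.8 and 52.1 CPM in Id2Δ/Δ libraries. Its genotypes were far apart relative to the gap between replicates, with a log2 fold change of -0.59 (SE 0.14, unadjusted p = 0.00335, adjusted p = 0.910). *Gbe1*, the glycogen branching enzyme, had 99.6 and 86.5 against 56.3 and 76.3 CPM and a log2 fold change of -0.50 (SE 0.18, unadjusted p = 0.0265, adjusted p = 0.910).

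The 2 most abundant genes of each list lay nearer to 0. *Pdha1* and *Pdhb*, subunits of the enzyme that the PDKs restrain, had log2 fold changes of 0.17 and 0.0051. *Bsg*, a chaperone of the lactate carriers, was at 0.21, and *Emb* at -0.07. *H6pd*, which runs the first pentose phosphate steps in the endoplasmic reticulum, was at -0.35 (SE 0.17), and *Prps2* at 0.11. Of the 7 tested genes of that list, all outside the 37, 1 was higher and 6 lower in Id2Δ/Δ libraries, and the median was -0.087. In 3 of the 7 both Id2Δ/Δ values lay below both Id2+/+ values, against 15.8% of all genes tested. At an unadjusted p-value under 0.05, 0 of the 7 passed. *Txnip*, which restrains glucose uptake, was at 0.0071, *Adpgk* at -0.0028, *Bpgm* at -0.06, *Slc5a2* at 0.17, *Slc2a8* at 0.13, *Pck2* at -0.07 and *Pygb* at -0.19. *Hif1a* had a log2 fold change of -0.07 (SE 0.14), and *Epas1*, which encodes HIF-2α, had 13 and 19 reads in Id2+/+ and 24 in each Id2Δ/Δ library.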

How the data were processed

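RNA-Seq was done on sorted HSCs, with 2 Id2+/+ and 2 Id2Δ/Δ libraries. The authors deposited log2 CPM values for 19354 genes, in 4 columns that match the sample titles. The unit was read from the values: taken back from log2, each column sums to between 999980 and 999996, and the columns share a median of 3.92, as quantile normalization gives. The submitters' processing notes name CASAVA 1.8.4, Trimmomatic 0.30, TopHat2 2.0.8, RSEM, STAR and the builds mm9 and NCBIM37, without their roles. The gene filter, the use of strand and the treatment of shared reads are not given in the sources used here. Quantile normalization removes any difference between libraries in the overall distribution.

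Reads below 32 CPM were recovered as the rank of a distinct value within its library. Higher reads were not, so no count model was run. Depth was the median of (reads + 0.5) divided by CPM. The precision is limited by 2 libraries per genotype.

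Values were tested as deposited, with no pseudocount, by limma 3.58.1 in R 4.3.3 (lmFit, eBayes with trend, 1 term for genotype) on the 15895 genes averaging 1 CPM or more, and the test was tried on simulated data. P-values are two-sided with Benjamini-Hochberg adjustment, called under 0.05. Shares of isozymes were compared by exact two-sided permutation. Positions and transcript lengths are those of GENCODE M21 (GRCm38), matched by Ensembl identifier for 99.7% of genes, and differ in build from the submitters' notes. Copies were found with blastn 2.17.0. Promoter windows are from RefSeq.

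The members and lists were chosen with earlier results of these data known. Named were all members, the other glucose genes with an unadjusted p-value under 0.05 and the 2 most abundant of each list, *Hif1a*, *Epas1* and *Id2*, and up to 3 markers per list. *Trp53* and *C130089K02Rik* were chosen after their values were seen. Alternatives varied the pseudocount, filter, scaling, trend, length correction, replicate block, threshold and libraries. A gene of the HSC marker list is not reported here, and the list was summed and counted without it.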

Additional observations from a re-analysis of the deposited data

How the results depend on the processing

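No alternative gave any of the 37 genes an adjusted p-value under 0.05, and the smallest was 0.266, without Id2Δ/Δ replicate 2. Over all genes limma called 0, but 1 with the replicate block and 1 with the replicate block and length correction (*C130089K02Rik* under the block), and 742 at an unadjusted p-value under 0.05, with 1 of the 37 among them. That last number was 2 under the block, 0 without the trend or at 10 CPM, and 0 to 6 with a library left out, the 6 coming without Id2Δ/Δ replicate 2, when 2516 of all genes passed. The numbers 1 and 2 are not said to pair libraries. Deviations of same-numbered libraries correlated at 0.0592 over all genes and 0.567 over the 37, which is a description. These deviations were not scaled to each gene's spread. Among the 37, the widest log2 gaps between Id2Δ/Δ replicates were those of *Tigar* (2.32), *Pdk4* (1.85) and *Eno2* (1.69). The value over the 37 therefore leans on these genes with few reads.

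The median over all 37 was 0.057 after the length correction, with or without the block, and that over all genes tested 0.033. In the main fit these medians were 0.032 and 0.011. The lactate median was 0.083 at 10 CPM, a filter that drops *Tigar*, *Eno2*, *Pdk4* and *Slc16a3*. With a library left out, medians ran from 0.022 to 0.061 over the 37, 0.0017 to 0.068 for upper glycolysis, 0.034 to 0.073 for lower glycolysis, -0.34 to 0.082 for the PDKs, 0.014 to 0.162 for the pentose phosphate genes, -0.246 to -0.011 for glucose uptake and -0.018 to 0.061 for lactate. The share of *Hk1* differed by -1.13 to 4.19 percentage points, of *Pfkl* by -0.0076 to 3.92, of *Ldha* by -0.0069 to 2.31 and of *Pdk3* by 0.57 to 8.06.

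The 11 and 6 genes whose libraries did not overlap cannot change sign when 1 library is left out. The share of all genes tested that kept their sign was not computed. Of the 37 genes, 21, these included, kept their sign whichever library was left out. The other 16 changed it: *Slc2a3* (-0.23 to 0.12), *Hk1* (-0.073 to 0.11), *Hk2* (-0.21 to 0.022), *Hk3* (-0.43 to 0.24), *Pfkm* (-0.22 to 0.046), *Pfkp* (-0.22 to 0.18), *Aldoa* (-0.051 to 0.060), *Pgk1* (-0.0049 to 0.26), *Pgam1* (-0.0073 to 0.087), *Pkm* (-0.0060 to 0.071), *Ldha* (-0.017 to 0.18), *Ldhb* (-0.12 to 0.057), *Pdk1* (-0.27 to 0.11), *Pdk4* (-1.31 to 0.54), *G6pdx* (-0.19 to 0.16) and *Taldo1* (-0.0076 to 0.44). With the length correction, with or without the block, *Slc2a3* was at 0.033, *Pfkp* at 0.11, *Aldoa* at -0.019 and *G6pdx* at 0.0057, and *Aldoa* was at -0.0081 after median-ratio rescaling. The cause was not tested.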
